A study of Mus musculus with 24 samples.

Results

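The TNF and TNF receptor superfamily was followed through activation and TH2 culture of mouse CD4 T cells with and without the transcription factors Batf and Batf3. Members were the genes whose symbol starts with Tnfsf or Tnfrsf, together with Tnf, Lta, Ltb, Ltbr, Cd27, Cd70, Cd40lg, Fas and Fasl, wherever a probe set carried exactly 1 symbol. This gave 38 members of 19938 genes on the array, 15 ligands and 23 receptors, each measured by 1 probe set. A further probe set with several symbols was left out. Of the 38 members, 31 had at least 1 group mean above an intensity of 28.6, the median of all probe set means, which serves here as a guide to background. That is 81.6% of the members, against 58.6% of all genes. Values at or under the guide may hold background only, and folds measured against them are too small.

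TNF family ligands are mostly made as trimeric membrane proteins and bind receptors that recruit TRAF adaptors, or death domain adaptors, and so feed into NF-kB, MAP kinase and caspase pathways. In T cells one set of receptors, among them OX40 (Tnfrsf4), 4-1BB (Tnfrsf9), GITR (Tnfrsf18), CD30 (Tnfrsf8) and CD27, acts as costimulatory, and activated CD4 T cells carry ligands such as CD40L and RANKL by which they act on B cells and dendritic cells. Batf and Batf3 are small AP-1 proteins that pair with Jun proteins and lack a transactivation domain of their own.

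Total RNA of CD4 T cells from 129SvEv mice was profiled on 24 Affymetrix arrays. The 2 genotypes were wild type (WT) and mice lacking both Batf and Batf3 (DKO, labelled Batf1/3DKO). Each was sampled in 4 states with 3 arrays per state: naive cells at day 0 without stimulation, cells at day 2 of TH2 polarization, and cells at day 4 that had received 2.2 or 10 ng/ml of soluble anti-CD3e. All stimulated cultures also received anti-CD28, held by an antibody coated on the plate, and TH2 conditions. The labels give no anti-CD3e dose for day 2 and do not say whether the 3 arrays of a group came from separate mice or cultures, so p-values measure the spread between these arrays, which may be technical. Values are intensities, listed below in the order of replicate number, and mean ± SD is over 3 arrays. The confidence intervals of folds come from a limma fit over all arrays, and a gene was called at a Benjamini-Hochberg adjusted p under 0.05 over all genes.

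Array medians lay between 26.4 and 31.6, and arrays of 1 group correlated at 0.971 to 0.984 across genes. Batf read 135 ± 20.9, 722 ± 137, 1509 ± 125 and 1595 ± 99.8 in WT cells at day 0, day 2, 2.2 ng/ml and 10 ng/ml, and group means of 31.2 to 46.5 in DKO cells, near the guide. Batf3 stood above the other groups only in WT cells at 10 ng/ml (146 ± 32.8, against 29.8 ± 4.57 in DKO cells), so it checks the labels in that state alone. The 8 measured T cell markers were above the guide in every group. Of the TH2 cytokines, Il4 was below the guide in all 4 DKO groups (means of 17.7 to 23.3), the naive day 0 group and those cultured under TH2 conditions. In WT cells it was also below the guide at day 0 (18.7, 20.1 and 24.6). WT arrays at 2.2 ng/ml read 22.2, 18.1 and 99.9, so replicates 1 and 2 lay below the guide. It read 237, 219 and 230 in WT cells at day 2 and 330.4 ± 61.7 at 10 ng/ml. Il4 did not stand for all TH2 markers. Of the 6 measured, 3 were called higher and 0 lower in DKO cells at day 2 against day 0. Mean Gata3 read 285 and 748, Ccr4 19.9 and 276, and Ccr8 9.68 and 161 in DKO cells at day 0 and day 2. Against WT cells at day 2, 5 of the 6 were called lower in DKO cells and 0 higher. WT replicate 3 at 2.2 ng/ml stood apart from its group in several members, and WT replicate 3 at day 2 in a few. WT replicate 3 at 10 ng/ml did so too, among members in Tnfrsf26, Tnfrsf23 and Lta.

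Activation moved much of the family in both genotypes. At day 2, the members called against day 0 in WT cells were 25 of 38 (65.8%, 13 higher and 12 lower), against 40.2% of all genes (19.7% and 20.5%). In DKO cells at day 2 they were 18 of 38 (47.4%, 9 higher and 9 lower), against 28.6% of all genes (15.3% and 13.3%). At 2.2 ng/ml the WT count was 16 of 38 (42.1%, 8 higher and 8 lower), against 29.2% of all genes (16.1% and 13.1%), and the DKO count 13 of 38 (34.2%, 7 higher and 6 lower), against 19.9% of all genes (11.6% and 8.28%). The WT count at 10 ng/ml was 17 of 38 (44.7%, 11 higher and 6 lower), against 36.4% of all genes (18.4% and 18%), and the DKO count 21 of 38 (55.3%, 12 higher and 9 lower), against 30.7% of all genes (16.4% and 14.3%). The members' share was above that of all genes in each of these comparisons, as was their share of genes above the guide, and the difference between these shares was not tested. Tnfrsf4 and Tnfrsf18, receptors for costimulation, rose in every stimulated group of both genotypes, while Cd27, Cd40lg and Ltb, which were bright at day 0, fell. The median log2 difference of the members from day 0 was -0.13 for day 2, -0.095 for 2.2 ng/ml and 0.021 for 10 ng/ml in WT cells, beside -0.11, -0.059 and -0.098 over all genes. Renormalizing the arrays moved the all-gene median by up to 0.142 in these comparisons, so a small change from day 0 depends on the scaling.

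**Figure D1:**
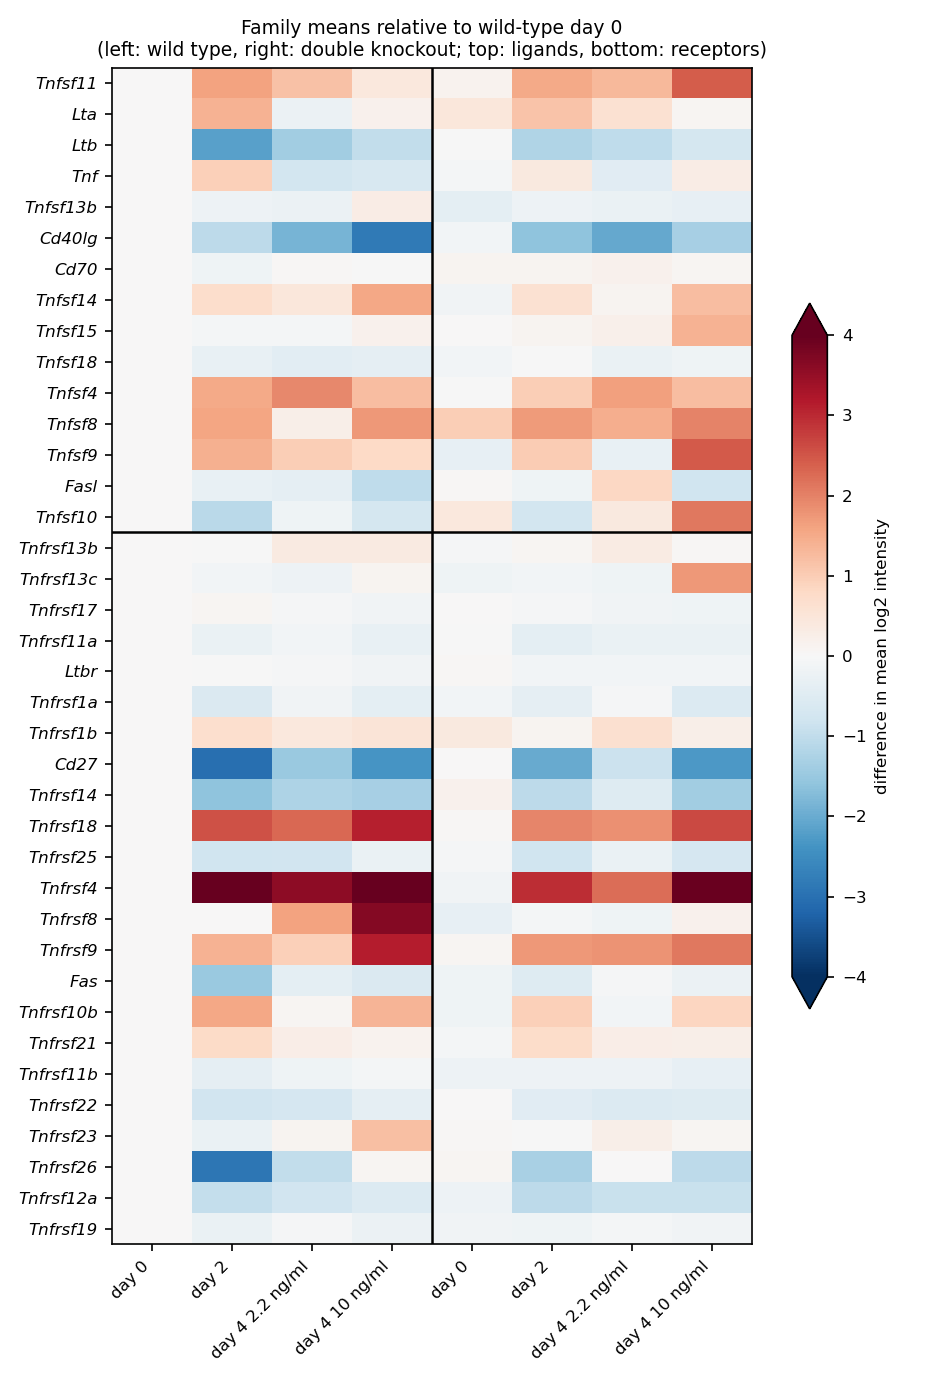
Log2 difference of each of the 38 members from the wild-type day 0 mean, with 1 row per member grouped by role and 1 column per group mean of 3 arrays. Colours are capped at 4 on the log2 scale, and the rows of Tnfrsf4 and Tnfrsf18 hold rises in every stimulated group, while Cd27 and Cd40lg hold falls in every stimulated group.

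Tnfrsf4 encodes OX40, a costimulatory receptor that T cells acquire on activation. WT arrays read 83.3, 67.4 and 101 at day 0, 1396, 1299 and 1268 at day 2, 922, 841 and 1225 at 2.2 ng/ml, and 2209, 1986 and 2578 at 10 ng/ml. DKO arrays read 83.03, 80.4 and 61.7 at day 0, 658, 630.4 and 639.7 at day 2, 293, 470.5 and 419.9 at 2.2 ng/ml, and 1158, 1416 and 1321 at 10 ng/ml. The genotypes overlapped at day 0, and in each stimulated state every WT array was above every DKO array. Tnfrsf4 rose in WT cells 15.96-fold (95% CI 12.4 to 20.5, adjusted p = 3.57e-15) by day 2, 11.9-fold (adjusted p = 3.97e-14) at 2.2 ng/ml and 27.2-fold (adjusted p = 1.84e-16) at 10 ng/ml. It also rose in DKO cells, 8.64-fold (adjusted p = 5.64e-13), 5.197-fold (adjusted p = 1.24e-10) and 17.4-fold (adjusted p = 2.22e-15) in the same order. It was lower in DKO cells 2.05-fold (95% CI 1.599 to 2.63, adjusted p = 0.000811) at day 2, 2.54-fold (95% CI 1.98 to 3.26, adjusted p = 1.38e-05) at 2.2 ng/ml and 1.73-fold (95% CI 1.35 to 2.23, adjusted p = 0.00227) at 10 ng/ml. The smaller rise in DKO cells passed a test of the difference between genotypes at 2.2 ng/ml (log2 difference of the rises -1.19 ± 0.25 SE, adjusted p = 0.00809), a call lost with only the compared groups in the fit (adjusted p = 0.065), within 0.00453 to 0.065 over all alternatives. It did not pass at day 2 (adjusted p = 0.0829) or at 10 ng/ml (adjusted p = 0.149).

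Tnfrsf18 encodes GITR and lies next to Tnfrsf4 in the genome. WT arrays read 145, 121 and 90.5 at day 0, 729, 707 and 616 at day 2, 540.3, 495 and 708 at 2.2 ng/ml, and 1074, 989 and 974 at 10 ng/ml. DKO arrays read 111, 142 and 109 at day 0, 465, 397 and 485 at day 2, 380.2, 436 and 435 at 2.2 ng/ml, and 755, 756 and 677 at 10 ng/ml. Both genotypes moved from a shared range at day 0 to several-fold higher levels in each stimulated state, with all WT arrays above all DKO arrays there. The rise in WT cells was 5.85-fold (adjusted p = 2.42e-12) at day 2, 4.92-fold (adjusted p = 2.24e-11) at 2.2 ng/ml and 8.67-fold (adjusted p = 5.44e-14) at 10 ng/ml. DKO cells showed rises of 3.74-fold (adjusted p = 7.08e-10), 3.48-fold (adjusted p = 2.95e-09) and 6.09-fold (adjusted p = 1.75e-12). Between genotypes it was called lower in DKO cells at day 2, 1.52-fold (adjusted p = 0.0328), and at 10 ng/ml, 1.39-fold (adjusted p = 0.0466). The day 2 call was lost under quantile normalization (adjusted p = 0.0678) and without any 1 of WT day 2 replicates 1 (0.129) and 2 (0.118), DKO day 2 replicates 1 (0.0532), 2 (0.147) and 3 (0.0554), within 0.0247 to 0.147 over all alternatives. The 10 ng/ml call was lost under quantile normalization (adjusted p = 0.0521), with the replicate number as a block (0.0571) and without any 1 of WT 10 ng/ml replicates 1 (0.157), 2 (0.0894) and 3 (0.0735), DKO 10 ng/ml replicates 1 (0.0866), 2 (0.0857) and 3 (0.159), within 0.00933 to 0.159 over all alternatives. The difference at the lower dose was not called (-0.46 ± 0.16 on the log2 scale, adjusted p = 0.121). Regulatory T cells, which also carry GITR and OX40, are marked by Foxp3, which read 65.9 ± 14.7 in WT and 237 ± 26.5 in DKO cells at 2.2 ng/ml and 34.3 ± 5.52 and 49.4 ± 2.204 at 10 ng/ml. The 6 markers of these cells summed to 3296 to 3760.0 in WT and 1528 to 1862 in DKO arrays at 2.2 ng/ml, and to 5616 to 7610.0 and 1951 to 2161 at 10 ng/ml, of which Il2ra gave 3466 ± 447 and 1489.99 ± 108 and Ctla4 2895 ± 569 and 223 ± 15.5 at the higher dose. These markers went both ways. Il2ra and Ctla4, which carry most of the sums at both doses, were called lower in DKO cells at both doses, Foxp3 was called higher at both and Nrp1 at 10 ng/ml (15.6 ± 2.198 and 94.4 ± 14.3), and Lrrc32 and Ikzf2 were not called. The median log2 difference of the 6 was 0.35 at 2.2 and 0.39 at 10 ng/ml. Their part in the receptor differences was not tested.

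Tnfrsf8 encodes CD30, a receptor long used as a marker of activated lymphocytes. WT arrays read 30.7, 31.9 and 34.5 at day 0, 40.7, 28.6 and 30.4 at day 2, 95.2, 116 and 84.98 at 2.2 ng/ml, and 495, 404 and 359 at 10 ng/ml. DKO arrays read 26.7, 21.9 and 29.8 at day 0, 36.8, 32.4 and 23.4 at day 2, 33.02, 32.5 and 21.6 at 2.2 ng/ml, and 36.003, 46.7 and 27.9 at 10 ng/ml. All 12 DKO arrays stayed near the guide, and only the day 4 WT arrays left it, with those at 10 ng/ml above those at 2.2 ng/ml. In WT cells Tnfrsf8 rose 3.03-fold (95% CI 2.26 to 4.06, adjusted p = 1.04e-06) at 2.2 ng/ml and 12.9-fold (95% CI 9.599 to 17.2, adjusted p = 3.57e-13) at 10 ng/ml. In DKO cells neither difference from day 0 was called (0.14 ± 0.20 on the log2 scale, adjusted p = 0.74 at 2.2 ng/ml; 0.48 ± 0.20 on the log2 scale, adjusted p = 0.0827 at 10 ng/ml). Tnfrsf8 was lower in DKO cells 3.43-fold (95% CI 2.56 to 4.598, adjusted p = 2.47e-06) at 2.2 ng/ml and 11.5-fold (95% CI 8.597 to 15.4, adjusted p = 4.69e-12) at 10 ng/ml, the largest genotype fold of any member. These folds are measured against levels near the guide. The rise from day 0 differed between genotypes by -1.46 ± 0.29 (SE) on the log2 scale at 2.2 ng/ml (adjusted p = 0.00525) and by -3.21 ± 0.29 at 10 ng/ml (adjusted p = 3.61e-08).

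Tnfrsf9 encodes 4-1BB, which sustains survival of activated T cells. WT arrays read 52.3, 45.8 and 52.7 at day 0, 127, 131 and 134 at day 2, 87.8, 92.6 and 109 at 2.2 ng/ml, and 475, 345 and 522 at 10 ng/ml. DKO arrays read 54.8, 57.7 and 46.8 at day 0, 179.9, 138 and 194 at day 2, 146, 193 and 188 at 2.2 ng/ml, and 221, 264 and 174 at 10 ng/ml. The order of the genotypes turned with the dose: every DKO array was above every WT array at 2.2 ng/ml, and below every WT array at 10 ng/ml. DKO cells were 1.82-fold (95% CI 1.43 to 2.31, adjusted p = 0.00232) higher at 2.2 ng/ml and 2.03-fold (95% CI 1.60 to 2.59, adjusted p = 9.2e-05) lower at 10 ng/ml. At day 2 the difference was not called (0.37 ± 0.17 on the log2 scale, adjusted p = 0.269). The dose moved Tnfrsf9 in WT cells, 4.58-fold (95% CI 3.603 to 5.82, adjusted p = 9.05e-10) higher at 10 than at 2.2 ng/ml, and was not called in DKO cells (0.31 ± 0.17 on the log2 scale, adjusted p = 0.345). The effect of dose differed between genotypes by -1.89 ± 0.24 (SE) on the log2 scale (adjusted p = 8.44e-06).

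**Figure D2:**
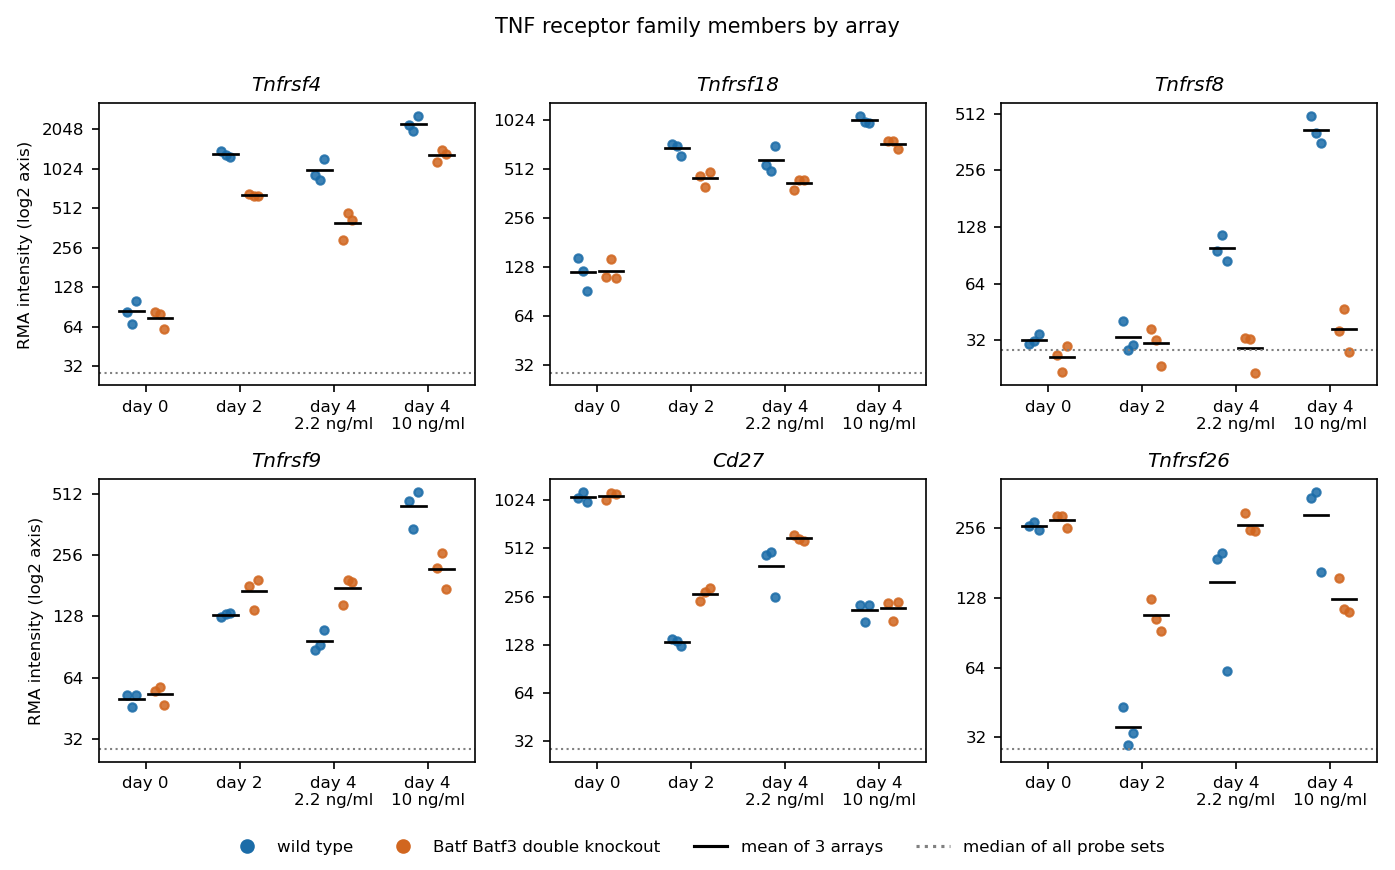
Intensity on a log2 axis of 6 receptors in each array, by state and genotype, with a bar at the mean of 3 arrays and a dotted line at the guide of 28.6. Tnfrsf8 stays near the guide in every DKO group, and Tnfrsf9 is above wild type at 2.2 ng/ml and below it at 10 ng/ml in DKO cells.

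Promoter windows from RefSeq (GRCm38.p6), 250 bases before to 50 after an annotated start, were available for 30 of the 38 members, in 34 windows. They were searched on both strands for TGACTCA, whose reverse complement is TGAGTCA, the consensus of AP-1 dimers. Of the 30 members 5 held it (Fas, Tnfrsf8, Tnfrsf9, Tnfsf13b and Tnfsf14), in 6 of the 34 windows, while 5.2% of 32851 promoter windows of the same length did. The composite of AP-1 and IRF letters was searched as TTTC followed after 4 free bases by TGACTCA or TGAGTCA, and as GAAA directly before either, all of which contain the AP-1 letters, and no member held any of them, beside 0.0365% to 0.0548% of all windows. A loose NF-kB motif, GGGG followed after 4 free bases by CC, was found in 13 members, beside 18.7% of all windows. A match is a description of these letters and no site of binding, which was not measured here. The windows printed (Tnfrsf8, Tnfrsf9, Tnfsf10 and Tnfrsf13c) were picked by hand from the 13 members whose dose effect differed between genotypes, as described below. Tnfrsf8 and Tnfrsf9 were lower in DKO cells at 10 ng/ml, and Tnfsf10 and Tnfrsf13c higher. Of those 13 with a window, only Tnfrsf8 and Tnfrsf9 held the AP-1 letters, while Fas, Tnfsf13b and Tnfsf14 were not among the 13. Cd40lg, Tnfsf9 and Tnfrsf26 were among the 13 and had no window. The letters did not follow the direction of the genotype calls. Tnfrsf4, Tnfrsf18, Tnfrsf23 and Tnfrsf25 were also called lower in DKO cells at 10 ng/ml and held none. Tnfsf13b, below the guide, was called lower there and held them. A link between these letters and the genotype was not tested. Capitals mark the AP-1 letters, at bases 119 to 125 of the Tnfrsf8 window and 236 to 242 of the second Tnfrsf9 window. The other printed windows hold none.
Tnfrsf8, chr4:145315115-145315414, minus strand: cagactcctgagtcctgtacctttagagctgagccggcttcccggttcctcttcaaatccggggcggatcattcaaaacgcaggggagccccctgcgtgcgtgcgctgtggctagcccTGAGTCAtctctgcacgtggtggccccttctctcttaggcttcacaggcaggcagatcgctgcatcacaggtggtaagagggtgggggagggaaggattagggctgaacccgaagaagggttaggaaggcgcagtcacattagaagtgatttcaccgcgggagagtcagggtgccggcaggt
Tnfrsf9 first window, chr4:150919905-150920204, plus strand: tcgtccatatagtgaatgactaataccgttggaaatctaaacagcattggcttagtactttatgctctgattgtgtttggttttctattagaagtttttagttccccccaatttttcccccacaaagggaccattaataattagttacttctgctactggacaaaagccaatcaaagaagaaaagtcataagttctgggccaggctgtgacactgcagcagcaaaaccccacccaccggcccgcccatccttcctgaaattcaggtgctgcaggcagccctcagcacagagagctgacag
Tnfrsf9 second window, chr4:150927749-150928048, plus strand: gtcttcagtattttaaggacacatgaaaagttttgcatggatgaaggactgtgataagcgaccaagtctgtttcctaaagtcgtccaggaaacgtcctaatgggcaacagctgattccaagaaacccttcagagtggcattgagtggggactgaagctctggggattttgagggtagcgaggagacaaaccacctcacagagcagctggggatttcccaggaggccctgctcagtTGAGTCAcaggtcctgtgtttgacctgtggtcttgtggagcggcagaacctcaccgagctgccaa
Tnfsf10, chr3:27316827-27317126, plus strand: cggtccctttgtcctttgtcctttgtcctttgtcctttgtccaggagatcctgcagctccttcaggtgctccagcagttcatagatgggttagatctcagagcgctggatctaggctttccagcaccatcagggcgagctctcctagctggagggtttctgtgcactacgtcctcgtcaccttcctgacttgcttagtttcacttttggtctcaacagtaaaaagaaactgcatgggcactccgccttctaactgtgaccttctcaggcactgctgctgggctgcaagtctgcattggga
Tnfrsf13c, chr15:82224331-82224630, minus strand: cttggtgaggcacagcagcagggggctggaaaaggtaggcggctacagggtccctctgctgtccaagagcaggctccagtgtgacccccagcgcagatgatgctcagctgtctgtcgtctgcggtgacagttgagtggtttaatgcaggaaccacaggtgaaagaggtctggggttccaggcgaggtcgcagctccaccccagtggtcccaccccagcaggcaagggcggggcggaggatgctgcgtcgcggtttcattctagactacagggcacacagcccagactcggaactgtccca

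Cd27 is the costimulatory receptor of naive T cells and, unlike the receptors above, was brightest at day 0. WT arrays read 1063, 1149 and 1002 at day 0, 139, 134 and 126 at day 2, 465, 483 and 253 at 2.2 ng/ml, and 228, 176 and 225 at 10 ng/ml. DKO arrays read 1023, 1137 and 1119 at day 0, 239.7, 272 and 288 at day 2, 621, 591 and 573 at 2.2 ng/ml, and 233, 181 and 238 at 10 ng/ml. Every stimulated array lay below every day 0 array of its genotype. At day 2 all DKO arrays were above all WT arrays, and at 10 ng/ml the genotypes overlapped. Cd27 fell in WT cells 8.06-fold (adjusted p = 8.18e-13) by day 2, 2.78-fold (adjusted p = 3e-07) at 2.2 ng/ml and 5.13-fold (adjusted p = 6.52e-11) at 10 ng/ml, and in DKO cells 4.11-fold (adjusted p = 1.42e-09), 1.84-fold (adjusted p = 0.000503) and 5.06-fold (adjusted p = 1.07e-10). It was 2.001-fold (95% CI 1.56 to 2.57, adjusted p = 0.00121) higher in DKO cells at day 2. The lower dose gave a call of 1.55-fold (adjusted p = 0.0412) higher, where WT replicate 3 read well below the other WT arrays. That call was lost with only the compared groups in the fit (adjusted p = 0.238) and without any 1 of WT 2.2 ng/ml replicate 3 (0.352), DKO 2.2 ng/ml replicates 1 (0.143), 2 (0.116) and 3 (0.0793), within 0.0117 to 0.381 over all alternatives. The higher dose went with less Cd27 in both genotypes, 1.84-fold (adjusted p = 0.000691) lower in WT and 2.76-fold (adjusted p = 2.83e-06) lower in DKO cells.

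Tnfrsf14 (HVEM), the receptor of Tnfsf14 and of the inhibitory receptor BTLA, and Tnfrsf25 (DR3), a death domain receptor that costimulates T cells, also read highest at day 0. For Tnfrsf14 WT arrays read 301, 327 and 462 at day 0, 115, 104 and 131 at day 2, 159, 194 and 111 at 2.2 ng/ml, and 176, 141 and 115 at 10 ng/ml. DKO arrays read 417, 359 and 443 at day 0, 177, 149 and 201 at day 2, 264, 226 and 259 at 2.2 ng/ml, and 106, 152 and 153 at 10 ng/ml. Day 0 arrays were above all stimulated arrays in both genotypes. Tnfrsf14 fell 3.08-fold (adjusted p = 3.55e-07), 2.37-fold (adjusted p = 2.53e-05) and 2.52-fold (adjusted p = 7.3e-06) in WT cells in the order day 2, 2.2 and 10 ng/ml. For Tnfrsf25 WT arrays read 85.7, 80.4 and 81.5 at day 0, 46.99, 46.8 and 47.6 at day 2, 47.1, 49.1 and 49.1 at 2.2 ng/ml, and 70.9, 68.7 and 67.4 at 10 ng/ml. DKO arrays read 71.9, 79.4 and 91.03 at day 0, 47.3, 50.3 and 44.5 at day 2, 88.8, 66.6 and 55.01 at 2.2 ng/ml, and 45.8, 48.8 and 61.4 at 10 ng/ml. Tnfrsf25 kept between 44.5 and 91.03, and at 10 ng/ml the WT arrays were all above the DKO arrays, while at 2.2 ng/ml they were all below. The effect of dose on Tnfrsf25 differed between genotypes (-0.93 ± 0.20 SE on the log2 scale, adjusted p = 0.00331). Within a dose its genotype calls were small, 1.42-fold (adjusted p = 0.0379) higher in DKO cells at 2.2 ng/ml and 1.34-fold (adjusted p = 0.0468) lower at 10 ng/ml. The former was lost under quantile normalization (adjusted p = 0.0681), with the replicate number as a block (0.0519), with trend and robust moderation (0.0574), with only the compared groups in the fit (0.211) and without any 1 of WT 2.2 ng/ml replicates 1 (0.128), 2 (0.0713) and 3 (0.0985), DKO 2.2 ng/ml replicates 1 (0.297) and 2 (0.0889), within 0.00568 to 0.297 over all alternatives. The latter was lost under quantile normalization (adjusted p = 0.0716), with the replicate number as a block (0.0611), with trend and robust moderation (0.0671), with only the compared groups in the fit (0.0743) and without any 1 of WT 10 ng/ml replicates 1 (0.134), 2 (0.102) and 3 (0.0803), DKO 10 ng/ml replicates 1 (0.22) and 2 (0.159), within 0.0153 to 0.22 over all alternatives. Tnfrsf14 was called 1.65-fold (adjusted p = 0.04) higher in DKO cells at 2.2 ng/ml, a call lost under cyclic loess (adjusted p = 0.0607), under quantile normalization (0.0549), with the replicate number as a block (0.0511), with only the compared groups in the fit (0.0965) and without any 1 of WT 2.2 ng/ml replicates 1 (0.0822) and 3 (0.303), DKO 2.2 ng/ml replicates 1 (0.144), 2 (0.0698) and 3 (0.116), within 0.0125 to 0.32 over all alternatives.

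Tnfrsf13c, the BAFF receptor, known mainly from B cells, stood out among the receptors of BAFF and APRIL. WT arrays read 80.2, 83.9 and 85.6 at day 0, 75.9, 80.9 and 76.2 at day 2, 70.8, 57.2 and 94.6 at 2.2 ng/ml, and 85.9, 105 and 81.9 at 10 ng/ml. DKO arrays read 85.8, 79.7 and 60.2 at day 0, 77.5, 82.4 and 71.5 at day 2, 81.1, 73.4 and 68.04 at 2.2 ng/ml, and 182, 363 and 331 at 10 ng/ml. The 21 arrays of the other 7 groups lay in a narrow band, and the 3 DKO arrays at 10 ng/ml lay above all of them. It was 3.099-fold (95% CI 2.33 to 4.11, adjusted p = 1.44e-06) higher in DKO cells at 10 ng/ml, and 3.78-fold (95% CI 2.85 to 5.02, adjusted p = 3.4e-07) higher there than in DKO cells at 2.2 ng/ml. The effect of dose differed between genotypes (1.60 ± 0.28 SE on the log2 scale, adjusted p = 0.000483). The summed level of the 7 measured B cell markers was 139 to 181 in the DKO arrays at 10 ng/ml and 90.1 to 97.2 in the WT arrays. Of them only Cd79b was above the guide, at 88.8 ± 27.9 against 27.2 ± 4.15, while Cd79a (11.4 ± 0.968) and Ms4a1 (6.17 ± 0.611) were below it. The part of B cells in the difference was not tested, and in bulk RNA more cells of a type and more RNA per cell cannot be told apart. Tnfrsf13b was at group means of 53.7 to 70.2 and Tnfrsf17 below the guide throughout. Neither was called between genotypes.

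Among receptors of TNF and lymphotoxin, Tnfrsf1b (TNFR2) was the member whose change from day 0 to day 2 differed by genotype. WT arrays read 61.5, 52.7 and 44.9 at day 0, 79.6, 81.2 and 91.3 at day 2, 75.4, 62.98 and 72.98 at 2.2 ng/ml, and 74.7, 75.3 and 76.1 at 10 ng/ml. DKO arrays read 73.7, 71.1 and 64.002 at day 0, 57.4, 60.6 and 51.7 at day 2, 94.1, 78.3 and 73.04 at 2.2 ng/ml, and 58.999, 68.6 and 57.7 at 10 ng/ml. From day 0 to day 2 all WT arrays moved above their day 0 range and all DKO arrays moved below theirs. The change by day 2 differed by -0.97 ± 0.18 (SE) on the log2 scale (adjusted p = 0.0063), and it was the 1 member called in this comparison, against 1.05% of all genes (0.306% higher and 0.742% lower). The count was 2 without WT day 2 replicate 3 and 2 without DKO day 2 replicate 1. The rise in WT cells was 1.59-fold (adjusted p = 0.000129). The fall in DKO cells was not called (-0.30 ± 0.13 on the log2 scale, adjusted p = 0.0851). At day 2 Tnfrsf1b was 1.49-fold (adjusted p = 0.0117) lower in DKO cells, a call lost without any 1 of WT day 2 replicate 3 (adjusted p = 0.0736), DKO day 2 replicate 3 (0.0784), within 0.00915 to 0.0784 over all alternatives. The change by 10 ng/ml also differed (-0.69 ± 0.18 SE, adjusted p = 0.0172), lost without any 1 of WT day 0 replicate 3 (adjusted p = 0.0584), DKO 10 ng/ml replicate 3 (0.0512), within 0.00672 to 0.0584 over all alternatives. Tnfrsf1a (TNFR1) stayed between group means of 94.9 and 144, and Ltbr, the lymphotoxin receptor of stromal and myeloid cells, below the guide. Neither was called between genotypes.

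Of the death domain receptors, Tnfrsf10b, the mouse TRAIL receptor, rose at day 2 and again at 10 ng/ml. WT arrays read 36.2, 29.1 and 29.3 at day 0, 93.4, 84.3 and 96.5 at day 2, 24.1, 31.1 and 49.4 at 2.2 ng/ml, and 87.4, 84.6 and 70.5 at 10 ng/ml. DKO arrays read 38.05, 19.7 and 27.9 at day 0, 65.5, 65.1 and 53.4 at day 2, 25.4, 30.2 and 32.4 at 2.2 ng/ml, and 49.4, 68.8 and 54.7 at 10 ng/ml. Levels at 2.2 ng/ml overlapped those of day 0 in both genotypes, and those at day 2 and 10 ng/ml lay above the day 0 range. The rise by day 2 was 2.91-fold (adjusted p = 2.27e-06) in WT and 2.22-fold (adjusted p = 0.000149) in DKO cells, and 10 exceeded 2.2 ng/ml 2.41-fold (adjusted p = 0.000123) in WT and 1.96-fold (adjusted p = 0.00414) in DKO cells. No genotype difference was called in any state. For Fas WT arrays read 144, 172 and 174 at day 0, 42.9, 44.4 and 105 at day 2, 121, 129.8 and 125 at 2.2 ng/ml, and 151, 85.4 and 99.1 at 10 ng/ml. DKO arrays read 151, 149.6 and 134 at day 0, 95.5, 123 and 125 at day 2, 145, 172 and 153 at 2.2 ng/ml, and 152, 135 and 127 at 10 ng/ml. WT replicates 1 and 2 at day 2 were the lowest Fas arrays, while replicate 3 lay in the range of the DKO arrays. Fas fell 2.78-fold (adjusted p = 1.4e-05) in WT cells by day 2. It was called 1.94-fold (adjusted p = 0.024) higher in DKO cells at day 2, and that call was lost with only the compared groups in the fit (adjusted p = 0.14) and without any 1 of WT day 2 replicates 1 (0.157) and 2 (0.157), DKO day 2 replicates 2 (0.0893) and 3 (0.104), within 4.25e-05 to 0.157 over all alternatives. Tnfrsf21 (DR6) rose 1.704-fold (adjusted p = 0.00442) in WT and 1.77-fold (adjusted p = 0.00317) in DKO cells by day 2, to 31.1 ± 6.88 and 30.6 ± 7.09, just above the guide.

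Tnfrsf22, Tnfrsf23 and Tnfrsf26 lie side by side in the genome. Tnfrsf22 and Tnfrsf23 are decoy receptors of TRAIL that lack a death domain, and since the 3 genes are close paralogs their probe sets may share signal. For Tnfrsf26 WT arrays read 261, 272 and 251 at day 0, 43.2, 29.8 and 33.5 at day 2, 187, 199 and 61.8 at 2.2 ng/ml, and 344, 365 and 165 at 10 ng/ml. DKO arrays read 289, 289 and 256 at day 0, 127, 104 and 91.9 at day 2, 296, 250.2 and 248 at 2.2 ng/ml, and 156, 114 and 111 at 10 ng/ml. At day 2 the DKO arrays were all above the WT arrays. At 10 ng/ml WT replicates 1 and 2 were highest, while replicate 3 lay just above the DKO arrays, and at 2.2 ng/ml WT replicate 3 lay far below replicates 1 and 2. Tnfrsf26 fell 7.45-fold (95% CI 4.79 to 11.6, adjusted p = 3.54e-08) in WT and 2.61-fold (95% CI 1.68 to 4.05, adjusted p = 0.00099) in DKO cells by day 2, when it was 3.04-fold (95% CI 1.96 to 4.73, adjusted p = 0.00332) higher in DKO cells. At 10 ng/ml it was 2.19-fold (adjusted p = 0.014) lower in DKO cells, a call lost without any 1 of WT 10 ng/ml replicates 1 (adjusted p = 0.0848) and 2 (0.0921), DKO 10 ng/ml replicates 2 (0.0589) and 3 (0.0604), within 0.00134 to 0.0921 over all alternatives. The effect of dose differed between genotypes by -2.13 ± 0.44 (SE) on the log2 scale (adjusted p = 0.00248), and that call held under every alternative run, the omission of WT 2.2 ng/ml replicate 3 included. For Tnfrsf23 WT arrays read 16.8, 17.97 and 16.9 at day 0, 15.2, 14.8 and 13.2 at day 2, 21.3, 15.7 and 18.7 at 2.2 ng/ml, and 45.8, 57.3 and 24.4 at 10 ng/ml. DKO arrays read 15.99, 19.6 and 17.7 at day 0, 17.9, 12.8 and 21.3 at day 2, 17.8, 17.7 and 25.6 at 2.2 ng/ml, and 17.01, 18.7 and 18.5 at 10 ng/ml. WT replicates 1 and 2 at 10 ng/ml were the only arrays of Tnfrsf23 above the guide. It was 2.21-fold (95% CI 1.61 to 3.04, adjusted p = 0.0006) lower in DKO cells at 10 ng/ml, against a level below the guide. Tnfrsf22 kept to group means of 93.2 to 162 with no call between genotypes or doses.

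Of the other receptors, Tnfrsf12a (Fn14), the TWEAK receptor, fell 1.93-fold (adjusted p = 0.000222) in WT and 1.78-fold (adjusted p = 0.00108) in DKO cells by day 2. Tnfrsf11a (RANK) reached the guide at day 0 only, and Tnfrsf11b, Tnfrsf17, Tnfrsf19 and Ltbr were below it in all groups. None of these was called between genotypes.

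Of the 15 ligands, Cd40lg, through which CD4 T cells help B cells, was bright at day 0 and fell on activation. WT arrays read 499.7, 542 and 508 at day 0, 210.4, 246 and 297 at day 2, 157, 119 and 153 at 2.2 ng/ml, and 52.3, 93.5 and 79.5 at 10 ng/ml. DKO arrays read 454, 481 and 504 at day 0, 179.5, 158 and 169.8 at day 2, 85.2, 138 and 161 at 2.2 ng/ml, and 191, 226 and 201 at 10 ng/ml. WT levels were lowest at 10 ng/ml, where every DKO array was above every WT array. At day 2 the order was the other way round, with every DKO array below every WT array. Cd40lg fell from day 0 in WT cells 2.08-fold (adjusted p = 0.000115) at day 2, 3.63-fold (adjusted p = 5.57e-08) at 2.2 ng/ml and 7.07-fold (adjusted p = 2.46e-11) at 10 ng/ml, and in DKO cells 2.84-fold (adjusted p = 1.32e-06), 3.87-fold (adjusted p = 4.09e-08) and 2.33-fold (adjusted p = 2.33e-05). It was 2.82-fold (95% CI 2.13 to 3.74, adjusted p = 4.73e-06) higher in DKO cells at 10 ng/ml. The lower DKO values at day 2 were not called (-0.56 ± 0.20 on the log2 scale, adjusted p = 0.141). From 2.2 to 10 ng/ml Cd40lg went down 1.95-fold (adjusted p = 0.00102) in WT and up 1.66-fold (adjusted p = 0.0191) in DKO cells. The latter call was lost without any 1 of DKO 2.2 ng/ml replicate 1 (adjusted p = 0.193), DKO 10 ng/ml replicates 2 (0.0911) and 3 (0.0519), within 0.00569 to 0.193 over all alternatives. These dose effects differed by 1.70 ± 0.28 (SE) on the log2 scale (adjusted p = 0.000259).

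Tnfsf11 encodes RANKL, a ligand best known for osteoclast formation that also supports dendritic cells. WT arrays read 61.9, 70.3 and 69.1 at day 0, 202, 187 and 232 at day 2, 150.4, 126 and 179 at 2.2 ng/ml, and 70.3, 97.98 and 102 at 10 ng/ml. DKO arrays read 65.1, 82.9 and 74.5 at day 0, 193, 237 and 149.9 at day 2, 141, 166 and 196 at 2.2 ng/ml, and 357, 318 and 406 at 10 ng/ml. The genotypes ran together at day 0, day 2 and 2.2 ng/ml and parted at 10 ng/ml, where WT arrays were back near their day 0 range and DKO arrays were the highest of all. The rise by day 2 was 3.08-fold (adjusted p = 4.3e-08) in WT and 2.58-fold (adjusted p = 9.37e-07) in DKO cells. At 10 ng/ml Tnfsf11 was 4.03-fold (95% CI 3.14 to 5.18, adjusted p = 6.29e-09) higher in DKO cells. The dose moved it 1.69-fold (adjusted p = 0.0032) down in WT and 2.16-fold (adjusted p = 0.000111) up in DKO cells, a difference of 1.87 ± 0.25 (SE) on the log2 scale (adjusted p = 1.64e-05).

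Tnfsf10 encodes TRAIL, which triggers apoptosis through death receptors. WT arrays read 48.3, 42.8 and 33.3 at day 0, 20.1, 18.2 and 19.6 at day 2, 35.9, 31.5 and 42.99 at 2.2 ng/ml, and 24.5, 20.3 and 32.8 at 10 ng/ml. DKO arrays read 64.6, 49.96 and 51.8 at day 0, 48.5, 16.8 and 18.7 at day 2, 33.8, 70.8 and 66.4 at 2.2 ng/ml, and 218, 174 and 144 at 10 ng/ml. The DKO arrays at 10 ng/ml were far above all other arrays, and WT arrays at 10 ng/ml lay about the guide. Tnfsf10 was 6.94-fold (95% CI 4.53 to 10.6, adjusted p = 1.81e-07) higher in DKO cells at 10 ng/ml, the largest upward genotype fold of any member. It rose 3.20-fold (adjusted p = 7.41e-05) from day 0 in DKO cells at that dose. In WT cells the difference from day 0 was not called (-0.69 ± 0.30 on the log2 scale, adjusted p = 0.0731). The 2 changes from day 0 differed by 2.37 ± 0.42 (SE) on the log2 scale (adjusted p = 0.000504).

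Fasl, the other death ligand, had its own high point in DKO cells at 2.2 ng/ml. WT arrays read 40.6, 44.5 and 59.7 at day 0, 53.6, 28.4 and 37.05 at day 2, 31.9, 45.9 and 35.3 at 2.2 ng/ml, and 19.5, 31.9 and 20.995 at 10 ng/ml. DKO arrays read 50.9, 41.8 and 55.2 at day 0, 40.7, 44.5 and 40.9 at day 2, 70.7, 97.9 and 88.6 at 2.2 ng/ml, and 30.5, 28.98 and 22.9 at 10 ng/ml. At 2.2 ng/ml all DKO arrays were above all WT arrays. The genotypes overlapped at day 0, day 2 and 10 ng/ml, and at 10 ng/ml both read near the guide. Fasl was 2.28-fold (95% CI 1.68 to 3.09, adjusted p = 0.000874) higher in DKO cells at 2.2 ng/ml and 3.12-fold (95% CI 2.301 to 4.23, adjusted p = 9.43e-06) lower there at 10 than at 2.2 ng/ml. The WT dose difference was 1.58-fold (adjusted p = 0.0359) lower, a call lost with only the compared groups in the fit (adjusted p = 0.0794) and without any 1 of WT 2.2 ng/ml replicates 2 (0.175) and 3 (0.0604), WT 10 ng/ml replicates 1 (0.187) and 3 (0.127), within 0.00782 to 0.187 over all alternatives. The dose effects differed by -0.98 ± 0.30 (SE) on the log2 scale (adjusted p = 0.0488), a call lost under quantile normalization (adjusted p = 0.0622), with the replicate number as a block (0.0611), with only the compared groups in the fit (0.0514) and without any 1 of WT 2.2 ng/ml replicates 1 (0.133) and 3 (0.1), WT 10 ng/ml replicate 2 (0.158), DKO 2.2 ng/ml replicates 2 (0.125) and 3 (0.0904), DKO 10 ng/ml replicates 1 (0.0544), 2 (0.0698) and 3 (0.131), within 0.0239 to 0.158 over all alternatives. The summed level of the 6 markers of CD8 T cells and NK cells was 596 to 739.5 in DKO and 258 to 324 in WT arrays at 2.2 ng/ml, of which Eomes gave 599 ± 82.5 and 200.2 ± 28.004. Besides Eomes only Cd8b1 was above the guide, and Cd8a, Ncr1, Klrb1c and Klrd1 were below it. Their part in the Fasl difference was not tested.

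Tnfsf9 (4-1BBL) and Tnfsf15 (TL1A), ligands more often described on antigen-presenting cells, were both highest in DKO cells at 10 ng/ml. For Tnfsf9 WT arrays read 30.4, 19.4 and 26.9 at day 0, 65.4, 57.1 and 82.9 at day 2, 36.8, 42.5 and 76.4 at 2.2 ng/ml, and 55.1, 17.2 and 85.7 at 10 ng/ml. DKO arrays read 15.9, 26.3 and 18.8 at day 0, 30.4, 58.99 and 73.6 at day 2, 16.5, 23.6 and 21.995 at 2.2 ng/ml, and 96.9, 136 and 194 at 10 ng/ml. The WT arrays at 10 ng/ml were scattered, with replicate 2 below the guide, and all 3 lay below the DKO arrays. Tnfsf9 was 3.16-fold (95% CI 1.76 to 5.69, adjusted p = 0.00634) higher in DKO cells at 10 ng/ml, a call lost without WT 10 ng/ml replicate 2 (adjusted p = 0.0747), within 0.000592 to 0.0747 over all alternatives. The difference was 1.66 on the log2 scale and 0.99 without WT 10 ng/ml replicate 2. In DKO cells it was 6.69-fold (95% CI 3.72 to 12.03, adjusted p = 6.23e-05) higher at 10 than at 2.2 ng/ml, where it was below the guide. In WT cells the dose difference was not called (-0.19 ± 0.41 on the log2 scale, adjusted p = 0.854). For Tnfsf15 WT arrays read 30.6, 31.9 and 33.3 at day 0, 31.8, 27.9 and 31.8 at day 2, 27.5, 30.2 and 32.6 at 2.2 ng/ml, and 36.3, 37.5 and 33.6 at 10 ng/ml. DKO arrays read 34.1, 28.9 and 34.1 at day 0, 38.9, 37.2 and 27.4 at day 2, 38.96, 38.04 and 33.4 at 2.2 ng/ml, and 99.3, 77.2 and 78.9 at 10 ng/ml. All Tnfsf15 arrays but the 3 of DKO cells at 10 ng/ml lay close to the guide. It was 2.37-fold (95% CI 1.96 to 2.86, adjusted p = 1.98e-07) higher in DKO cells at 10 ng/ml. The summed level of the 12 myeloid and dendritic cell markers, the cells in which these ligands are better known, was 531 to 608 in DKO and 219 to 247 in WT arrays at 10 ng/ml, of which Ctss gave 241 ± 29.1 and 53.6 ± 13.5 and Cd74 185 ± 8.07 and 38.2 ± 3.68. Both were called higher in DKO cells at that dose (adjusted p = 3.34e-09 and 3.7e-08). They were the only 2 of the 12 markers called, 16.7% of the list against 12.8% of all genes. The median log2 difference of the 12 was 0.043, beside 0.031 over all genes. Lyz2, Itgam and Csf1r were below the guide in all groups, and the part of such cells was not tested.

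Tnfsf8 encodes CD30L, the ligand of Tnfrsf8. WT arrays read 186, 135 and 208 at day 0, 481, 442 and 656 at day 2, 155, 187 and 283 at 2.2 ng/ml, and 549, 553 and 625 at 10 ng/ml. DKO arrays read 337, 317 and 383 at day 0, 502, 607 and 592 at day 2, 425, 509 and 500.3 at 2.2 ng/ml, and 608, 716 and 750.4 at 10 ng/ml. DKO arrays were above WT arrays at day 0 and at 2.2 ng/ml without overlap. The genotypes overlapped at day 2 and at 10 ng/ml, where the highest levels were. Tnfsf8 with 2.2 ng/ml was 2.36-fold (95% CI 1.81 to 3.08, adjusted p = 0.00011) higher in DKO cells. At day 0 it was 1.99-fold (adjusted p = 0.0376) higher and the 1 member called, against 0.0652% of all genes (0.0552% higher and 0.01% lower). The day 0 call was lost under cyclic loess (adjusted p = 0.0919), with only the compared groups in the fit (0.264) and without any 1 of WT day 0 replicates 1 (0.0731) and 2 (0.171), DKO day 0 replicates 1 (0.126), 2 (0.091) and 3 (0.174), within 0.00548 to 0.264 over all alternatives, so the count at day 0 was 0 under each of these. At an unadjusted p under 0.05 in the limma fit it was 3 of 38, beside 1415 of 19938 genes. The dose raised Tnfsf8 2.84-fold (adjusted p = 2.01e-06) in WT cells and was not called in DKO cells (0.53 ± 0.19 on the log2 scale, adjusted p = 0.0881). Dose effects on Tnfsf8 differed by -0.98 ± 0.26 (SE) on the log2 scale (adjusted p = 0.0227), a call lost without any 1 of WT 2.2 ng/ml replicate 1 (adjusted p = 0.0852), WT 10 ng/ml replicate 3 (0.0502), DKO 2.2 ng/ml replicates 2 (0.0568) and 3 (0.0505), DKO 10 ng/ml replicate 1 (0.0673), within 0.00111 to 0.0852 over all alternatives.

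**Figure D3:**
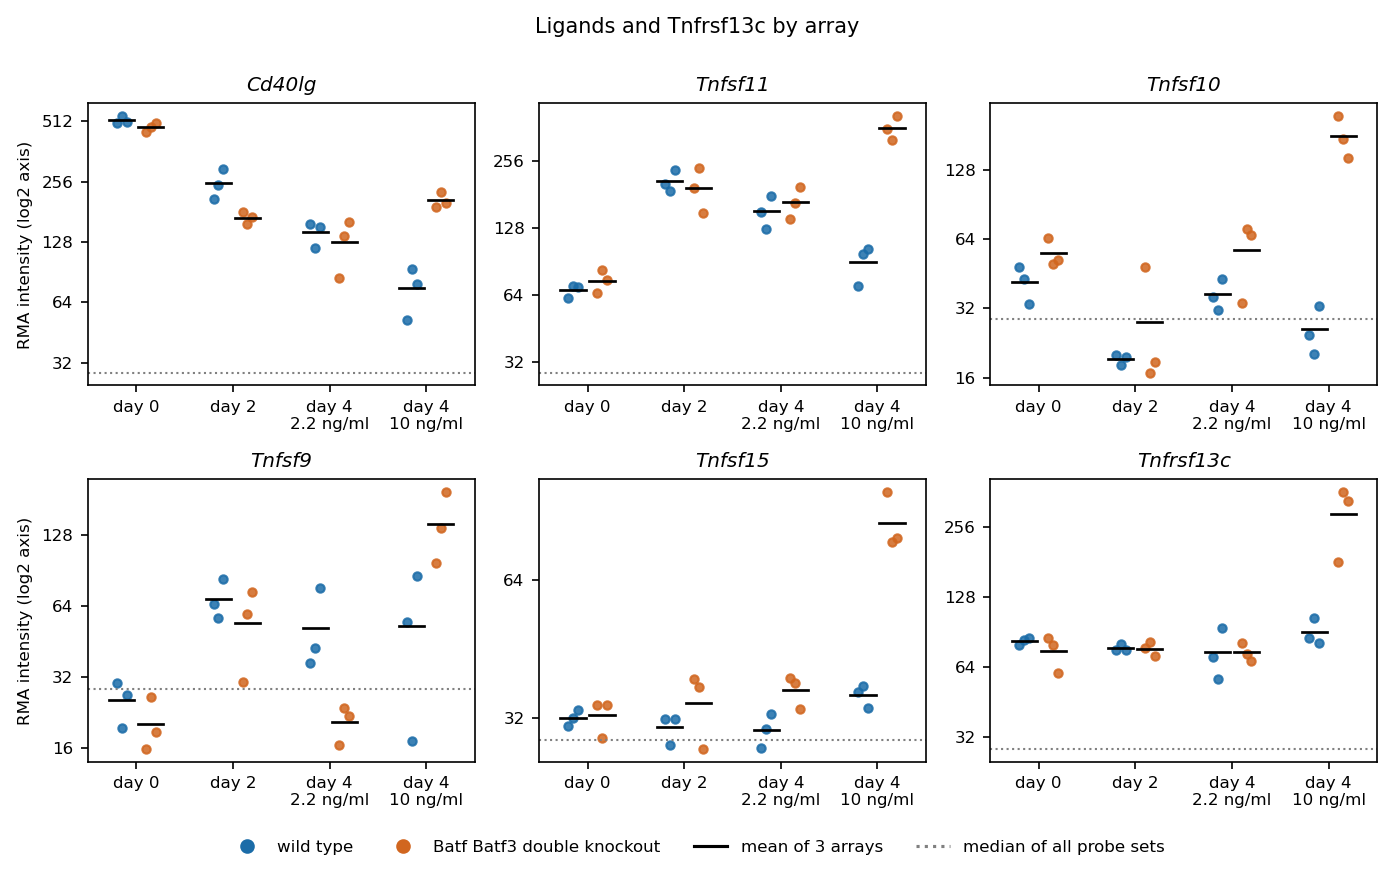
Intensity on a log2 axis of 5 ligands and of Tnfrsf13c in each array, by state and genotype, with a bar at the mean of 3 arrays and a dotted line at the guide of 28.6. In each panel the 3 double knockout arrays at 10 ng/ml lie above the 3 wild-type arrays.

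Tnfsf14 (LIGHT), a ligand of Tnfrsf14, followed the higher dose in both genotypes. WT arrays read 37.6, 22.8 and 33.3 at day 0, 47.97, 43.95 and 57.1 at day 2, 42.6, 41.03 and 43.1 at 2.2 ng/ml, and 102, 69.7 and 102 at 10 ng/ml. DKO arrays read 25.2, 33.3 and 25.4 at day 0, 45.1, 51.5 and 44.2 at day 2, 27.5, 36.7 and 36.5 at 2.2 ng/ml, and 55.2, 62.9 and 108 at 10 ng/ml. In both genotypes all arrays at 10 ng/ml were above those at 2.2 ng/ml. The difference was 2.13-fold (adjusted p = 0.000583) in WT and 2.17-fold (adjusted p = 0.000986) in DKO cells, and no genotype difference was called. For Ltb, which pairs with Lta in the lymphotoxin heterotrimer, WT arrays read 303, 285 and 214 at day 0, 55.9, 70.4 and 52.8 at day 2, 146, 92.6 and 73.5 at 2.2 ng/ml, and 160.2, 101 and 146 at 10 ng/ml. DKO arrays read 229.96, 292 and 271 at day 0, 98.9, 119 and 125 at day 2, 121, 140.2 and 133 at 2.2 ng/ml, and 192, 118 and 188 at 10 ng/ml. Ltb was highest at day 0 and lowest in WT cells at day 2, where it lay below every DKO array. It fell 4.46-fold (adjusted p = 1.9e-08) in WT and 2.31-fold (adjusted p = 0.000111) in DKO cells by day 2, and was called 1.92-fold (adjusted p = 0.0179) higher in DKO cells then, a call lost without any 1 of WT day 2 replicates 1 (adjusted p = 0.0793) and 3 (0.0883), DKO day 2 replicates 2 (0.0664) and 3 (0.0863), within 0.00985 to 0.0883 over all alternatives. Lta rose 2.62-fold (adjusted p = 0.000179) by day 2 in WT cells. Tnf read 151, 123 and 131 at day 0 and 182, 222 and 440.1 at day 2 in WT cells, and its rise was called at 1.94-fold (adjusted p = 0.0191), a call lost under cyclic loess (adjusted p = 0.0526), under quantile normalization (0.0595) and without any 1 of WT day 0 replicates 2 (0.0554) and 3 (0.0512), WT day 2 replicate 3 (0.167), within 0.00576 to 0.167 over all alternatives. Neither Tnf nor Lta was called between genotypes or doses.

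Tnfsf4, the ligand of OX40, rose from below the guide at day 0 to 60.7 ± 50.8 in WT cells at 2.2 ng/ml, 3.78-fold (adjusted p = 0.00258), and was not called between genotypes. The WT arrays at that dose read 42.9, 21.1 and 118, with replicate 3 the highest. The rise was 1.92 on the log2 scale, 1.26 without replicate 3 (adjusted p = 0.0382) and 2.50 without replicate 2 (adjusted p = 0.000143), within 0.000143 to 0.0382 over all alternatives. Tnfsf13b (BAFF) was below the guide in all group means. WT arrays read 14.5, 11.02 and 13.7 at day 0, 9.69, 11.8 and 12.7 at day 2, 11.02, 10.3 and 11.6 at 2.2 ng/ml, and 13.4, 22.4 and 13.8 at 10 ng/ml. DKO arrays read 10.2, 10.6 and 9.22 at day 0, 9.05, 12.5 and 12.3 at day 2, 11.9, 11.4 and 9.23 at 2.2 ng/ml, and 11.6, 9.81 and 9.47 at 10 ng/ml. All of these are in the range of background. Its call of 1.57-fold (adjusted p = 0.0126) lower in DKO cells at 10 ng/ml was lost with only the compared groups in the fit (adjusted p = 0.0549) and without any 1 of WT 10 ng/ml replicate 2 (0.135), DKO 10 ng/ml replicates 2 (0.0511) and 3 (0.058), within 0.00711 to 0.135 over all alternatives, and its call of 1.47-fold (adjusted p = 0.0319) higher at 10 than at 2.2 ng/ml in WT cells was lost with only the compared groups in the fit (adjusted p = 0.115) and without any 1 of WT 2.2 ng/ml replicates 1 (0.075), 2 (0.0994) and 3 (0.0501), WT 10 ng/ml replicate 2 (0.265), within 0.0157 to 0.265 over all alternatives. Cd70 and Tnfsf18 were below the guide in all groups and were called in no comparison.

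Counted over the family, genotype calls were fewest at day 0 and most at 10 ng/ml, as they were over all genes. At day 2 the members called between genotypes were 7 of 38 (18.4%, 4 higher and 3 lower), against 2.71% of all genes (1.03% and 1.68%). Those at 2.2 ng/ml were 8 of 38 (21.1%, 6 higher and 2 lower), against 3.71% of all genes (1.65% and 2.06%), and those at 10 ng/ml were 14 of 38 (36.8%, 6 higher and 8 lower), against 12.8% of all genes (6.68% and 6.09%). With 10 ng/ml 5 ligands were higher and 1 lower in DKO cells, while 1 receptor was higher and 7 lower. Of these 14 calls 9 held under every alternative. The 5 that did not were those of the ligands Tnfsf9 and Tnfsf13b and of the receptors Tnfrsf18, Tnfrsf25 and Tnfrsf26. The median log2 difference at 10 ng/ml was 0.26 for the 15 ligands and -0.24 for the 23 receptors, beside 0.031 for all genes. The difference between ligands and receptors was not tested. The count at 10 ng/ml was 9 without WT 10 ng/ml replicate 2. The count at 2.2 ng/ml was 5 without any 1 of WT replicate 3, DKO replicate 1 or DKO replicate 2. At day 2 it was 4 without WT replicate 1, 4 without DKO replicate 2 and 3 without DKO replicate 3.

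**Figure D4:**
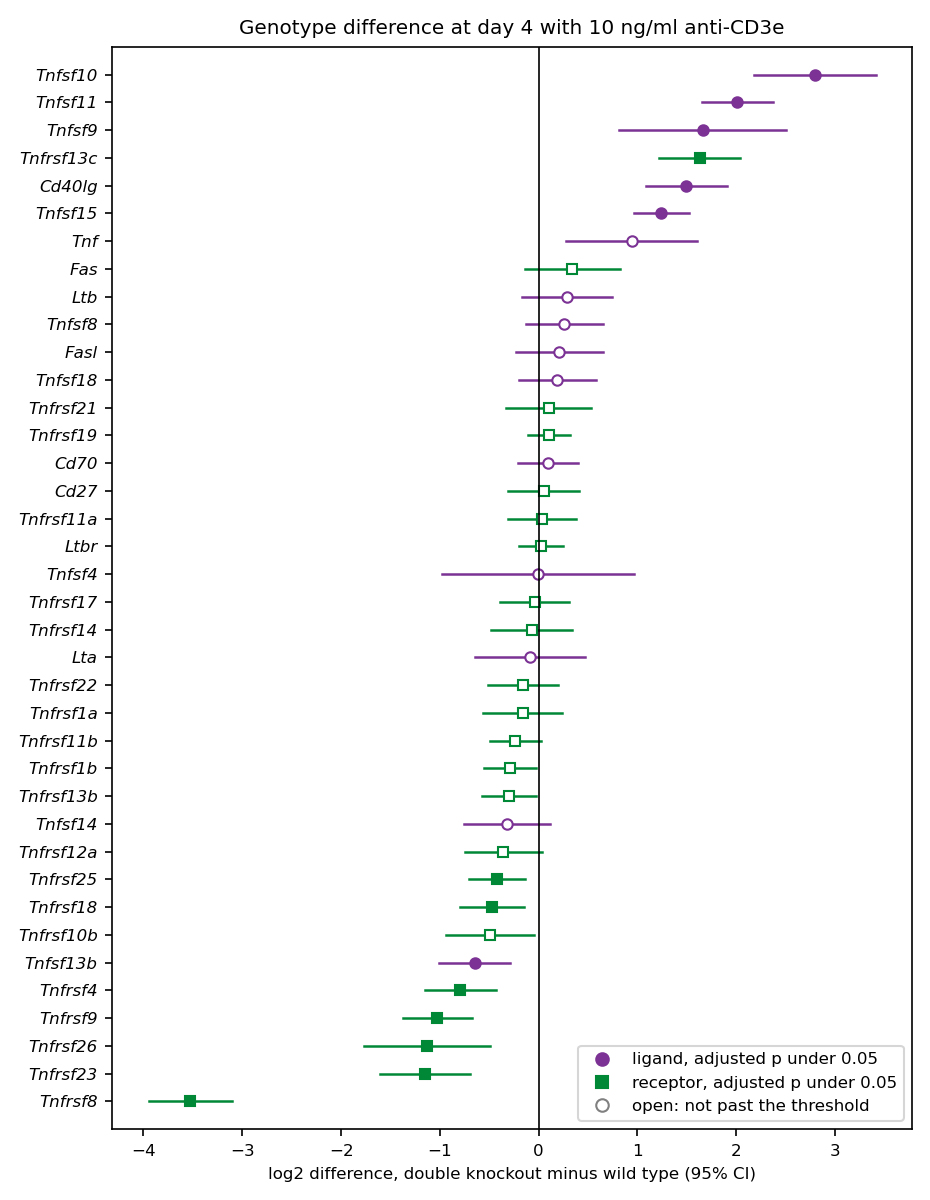
Log2 difference between double knockout and wild type at 10 ng/ml for the 38 members, with bars for the 95% confidence interval. Colour and marker shape tell ligands from receptors. Filled markers are members past the adjusted p threshold of 0.05, and open markers are not past it. Tnfsf10 has the highest value at 2.80, and Tnfrsf8 the lowest at -3.53.

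Against dose, members called between 10 and 2.2 ng/ml were 15 of 38 (39.5%, 11 higher and 4 lower), against 15.2% of all genes (7.64% and 7.52%) in WT cells and 14 of 38 (36.8%, 10 higher and 4 lower), against 8.15% of all genes (4.47% and 3.68%) in DKO cells. The 2 comparisons use separate arrays. Tnfrsf4, Tnfrsf18, Tnfrsf10b and Tnfsf14 were higher and Cd27 lower at 10 ng/ml in both genotypes. The effect of dose differed between genotypes for 13 of 38 (34.2%, 6 higher and 7 lower), against 6.94% of all genes (3.56% and 3.38%). These were Tnfsf11, Cd40lg, Tnfsf15, Tnfsf9, Tnfsf10 and Tnfrsf13c, more positive in DKO cells, and Tnfsf8, Fasl, Tnfrsf25, Tnfrsf8, Tnfrsf9, Tnfrsf23 and Tnfrsf26, more negative. Of these 13 calls 11 held under every alternative, and those of Tnfsf8 and Fasl did not. Dose effects were not called different for Tnfrsf4 (0.55 ± 0.25 on the log2 scale, adjusted p = 0.231) or Cd27 (-0.58 ± 0.25 on the log2 scale, adjusted p = 0.195). The change from day 0 to 10 ng/ml differed between genotypes for 10 of 38 (26.3%, 6 higher and 4 lower), against 6.52% of all genes (2.64% and 3.88%), and the change to 2.2 ng/ml for 2 of 38 (5.26%, 0 higher and 2 lower), against 1.48% of all genes (0.346% and 1.13%).

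**Figure D5:**
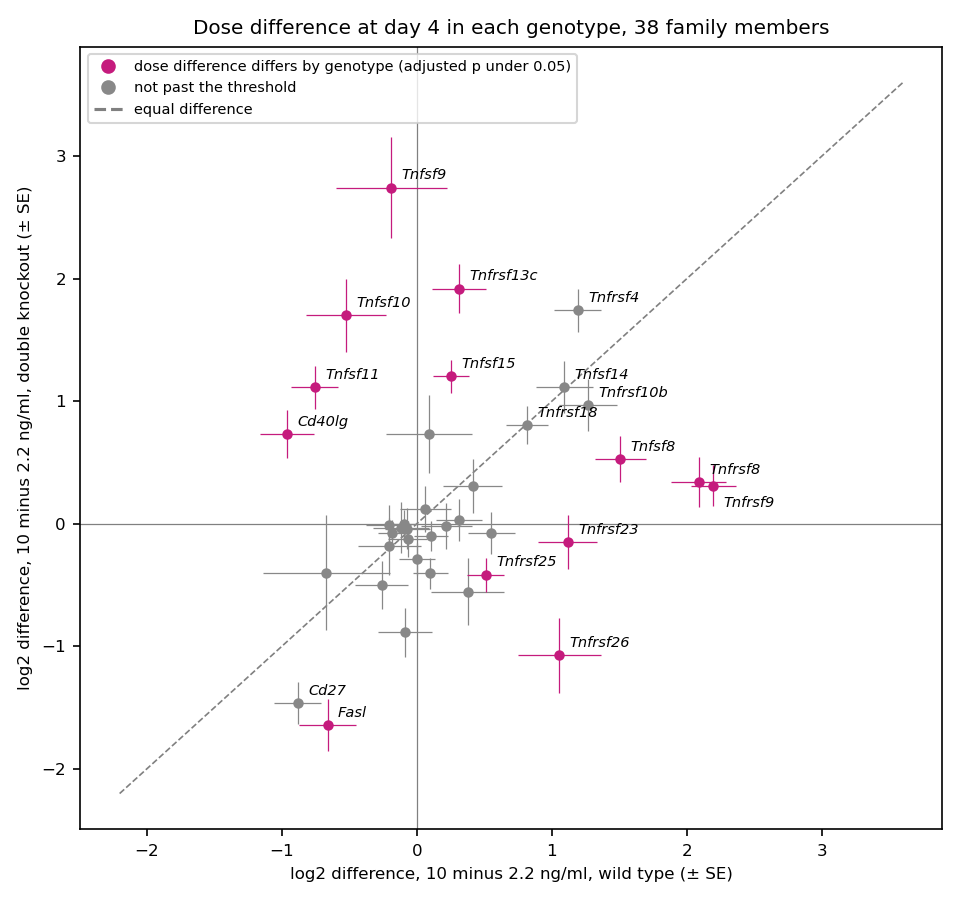
Log2 difference between 10 and 2.2 ng/ml in wild type (horizontal axis) and in double knockout (vertical axis) for the 38 members, with bars for 1 SE and a dashed line where both are equal. Members whose dose effect differs by genotype are coloured and lie away from the line, Tnfsf9 and Tnfsf10 above it and Tnfrsf9, Tnfrsf8 and Tnfrsf26 below it.

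Read as ligand and receptor pairs, some partners lay on opposite sides between genotypes at day 4. At 10 ng/ml Tnfsf9 was higher and its receptor Tnfrsf9 lower in DKO cells (1.66 ± 0.41 and -1.02 ± 0.17 SE on the log2 scale), where the Tnfsf9 call was lost without WT 10 ng/ml replicate 2 (adjusted p = 0.0747), within 0.000592 to 0.0747 over all alternatives. At 2.2 ng/ml Tnfsf8 was higher and its receptor Tnfrsf8 lower (1.24 ± 0.19 and -1.78 ± 0.20 SE). At 10 ng/ml Tnfsf8 was not called. Tnfsf8 was already called higher in DKO cells at day 0, a call lost under some alternatives. Its change from day 0 to 2.2 ng/ml was not called different between genotypes. Tnfsf15 was higher at 10 ng/ml while its receptor Tnfrsf25 differed by -0.42 ± 0.14 SE. The Tnfsf15 call held under every alternative, and the Tnfrsf25 call did not. For TRAIL the ligand Tnfsf10 was higher at 10 ng/ml and its receptor Tnfrsf10b was not called (-0.50 ± 0.21 on the log2 scale, adjusted p = 0.159). The partners of Tnfsf11, Tnfrsf11a and Tnfrsf11b, and the partner of Cd27, Cd70, were below the guide at that dose. Partners were not both called at either dose for Tnfsf4 and Tnfrsf4, Tnfsf14 and Tnfrsf14, or Fasl and Fas. These pairs were matched from textbook knowledge, and no test of the pairs was made. The pairs and doses were picked with the results known, and not all pairs of the family are listed.

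Several members are neighbours in the RefSeq mouse annotation, with no other protein-coding gene between them. Tnfrsf4 and Tnfrsf18 were higher together in all stimulated groups. Tnfrsf1b and Tnfrsf8 differed: at 10 ng/ml Tnfrsf8 was lower in DKO cells and Tnfrsf1b was not called (-0.29 ± 0.13 on the log2 scale, adjusted p = 0.162). Tnfsf15 and Tnfsf8 differed too, since Tnfsf8 was not called between genotypes at 10 ng/ml (0.26 ± 0.19 on the log2 scale, adjusted p = 0.493). In the row Tnfsf9, Cd70, Tnfsf14 the first was higher in DKO cells at 10 ng/ml, the second was below the guide and the third was not called. Of Tnfsf4, Tnfsf18 and Fasl, Tnfsf18 was below the guide throughout.

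Genes that act downstream of the receptors were followed through a list of adaptors and effectors (15 of 17 listed genes measured) and a list of NF-kB components (11 of 13 measured), and the rest were not analysed here. At day 2 in WT cells 1 adaptor rose and 8 fell against day 0, 60.0% of the list against 40.2% of all genes (19.7% higher and 20.5% lower). Tnfaip3 (A20), an inhibitor of NF-kB signalling, fell 5.47-fold (adjusted p = 3.48e-11) and Traf5, an adaptor of OX40 and CD27, fell 3.28-fold (adjusted p = 1.75e-10). In DKO cells at day 2, 0 adaptors rose and 9 fell against day 0, 60% of the list against 28.6% of all genes (15.3% higher and 13.3% lower). Between genotypes at 10 ng/ml 2 adaptors were higher and 6 lower in DKO cells, 53.3% of the list against 12.8% of all genes (6.68% higher and 6.09% lower). Tnfaip3 read 433, 422 and 361 in WT and 162, 188 and 218 in DKO arrays, 2.15-fold (95% CI 1.67 to 2.76, adjusted p = 5.78e-05) lower. Cflar, which blocks caspase-8 activation, read 601, 559 and 711 and 297, 309 and 355, 1.94-fold (95% CI 1.57 to 2.403, adjusted p = 4.29e-05) lower. No array of one genotype reached the range of the other for either gene. Tank, a TRAF-binding protein, was 2.08-fold (adjusted p = 1.09e-06) higher in DKO cells at 2.2 ng/ml. Among NF-kB components 1 was higher and 1 lower in DKO cells at 10 ng/ml, 18.2% of the list against 12.8% of all genes (6.68% higher and 6.09% lower), and the difference between these shares was not tested. Rel (c-Rel) read 229, 216 and 227 in WT and 681, 699 and 726 in DKO arrays, 3.13-fold (95% CI 2.65 to 3.701, adjusted p = 1.71e-10) higher, and Bcl3, an atypical IkB protein, read 808, 732 and 749 and 196, 189.6 and 159.7, 4.21-fold (95% CI 3.46 to 5.13, adjusted p = 5.55e-11) lower. Rel was also higher in DKO cells at day 2, 1.69-fold (adjusted p = 0.000275), and at 2.2 ng/ml, 1.87-fold (adjusted p = 1.33e-05). Bcl3 lay the other way round at day 0, with 169, 153 and 133 in WT and 309, 267 and 213 in DKO arrays. At 2.2 ng/ml Bcl3 read 502, 588 and 524 in WT and 284, 309 and 260 in DKO arrays. The lists' median log2 differences at 10 ng/ml were -0.30 and 0.10.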

How the data were processed

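Total RNA of 24 samples in 8 groups of 3 was hybridised to Affymetrix arrays. The deposited values are intensities on a linear scale made by the authors with RMA, per the submitters' processing notes. Which program ran it is not given in the sources used here. RMA gives all arrays nearly one distribution, which takes out any shift common to most genes, and background signal shrinks the folds of dim genes. Of 35556 probe sets 21789 carry 1 gene symbol, and for genes with several the brightest was used, which left 19938 genes.

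Log2 values were fitted with limma 3.58.1 in R 4.3.3, with 1 mean for each of the 8 groups over all 24 arrays, 16 residual and 7.49 prior degrees of freedom. The Benjamini-Hochberg method over all genes of a comparison gave adjusted p-values, called under 0.05. A fold is a ratio of geometric means with a 95% interval. On simulated data of 19938 genes for the day 2 comparison of genotypes, the fit called 17 of 50 genes with a log2 change of 0.5, 48 of 50 with 1 and 50 of 50 with 2, and made 12 calls on unchanged genes. No batch was tested, as neither labels nor file name one. The number of arrays limits the precision.

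The members and lists were chosen with earlier results of these data known. Members called in any genotype, dose or interaction comparison are given array by array, and others by ranges and counts. From each pathway list at most 4 called genes per comparison with the smallest p may be named. Alternatives were cyclic loess and quantile normalization of the deposited values, a filter on dim genes, another variance moderation, only the compared groups in the fit, the replicate number as a block, averaging probe sets of 1 gene, and the omission of each array in turn.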

Additional observations from a re-analysis of the deposited data

Results flagged for a closer look

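The effects that differed between genotypes in a test of the difference itself, DKO minus WT on the log2 scale, are gathered here. For the change from day 0 to day 2 the member was Tnfrsf1b (-0.97 ± 0.18 SE, adjusted p = 0.0063). For the change from day 0 to 2.2 ng/ml the members were Tnfrsf8 (-1.46 ± 0.29 SE, adjusted p = 0.00525) and Tnfrsf4 (-1.19 ± 0.25 SE, adjusted p = 0.00809). Tnfrsf4 lost its call with only the compared groups in the fit (adjusted p = 0.065), within 0.00453 to 0.065 over all alternatives.

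For the change from day 0 to 10 ng/ml the value was above 0 for Tnfsf10 (2.37 ± 0.42 SE, adjusted p = 0.000504), Tnfsf9 (2.00 ± 0.58 SE, adjusted p = 0.0369), Tnfsf11 (1.87 ± 0.25 SE, adjusted p = 1.22e-05), Tnfrsf13c (1.79 ± 0.28 SE, adjusted p = 0.000109), Cd40lg (1.60 ± 0.28 SE, adjusted p = 0.000403) and Tnfsf15 (1.23 ± 0.19 SE, adjusted p = 8.77e-05). It was below 0 for Tnfrsf8 (-3.21 ± 0.29 SE, adjusted p = 3.61e-08), Tnfrsf23 (-1.19 ± 0.31 SE, adjusted p = 0.0188), Tnfrsf9 (-1.10 ± 0.24 SE, adjusted p = 0.00361) and Tnfrsf1b (-0.69 ± 0.18 SE, adjusted p = 0.0172). The Tnfsf9 call was lost with trend and robust moderation (adjusted p = 0.0766), with only the compared groups in the fit (0.0625) and without any 1 of WT day 0 replicates 1 (0.0879) and 3 (0.0725), WT 10 ng/ml replicate 2 (0.107), DKO day 0 replicates 1 (0.095) and 3 (0.0747), DKO 10 ng/ml replicates 2 (0.0673) and 3 (0.109), within 0.00447 to 0.109 over all alternatives. Without WT 10 ng/ml replicate 2 the Tnfsf9 value was 1.33. Tnfrsf23 lost its call without any 1 of WT 10 ng/ml replicates 1 (adjusted p = 0.0616) and 2 (0.0689), DKO day 0 replicate 2 (0.0514), within 0.000224 to 0.0689 over all alternatives, and Tnfrsf1b without any 1 of WT day 0 replicate 3 (adjusted p = 0.0584), DKO 10 ng/ml replicate 3 (0.0512), within 0.00672 to 0.0584 over all alternatives.

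For the change from 2.2 to 10 ng/ml the value was above 0 for Tnfsf9 (2.93 ± 0.58 SE, adjusted p = 0.00181), Tnfsf10 (2.23 ± 0.42 SE, adjusted p = 0.00117), Tnfsf11 (1.87 ± 0.25 SE, adjusted p = 1.64e-05), Cd40lg (1.70 ± 0.28 SE, adjusted p = 0.000259), Tnfrsf13c (1.60 ± 0.28 SE, adjusted p = 0.000483) and Tnfsf15 (0.95 ± 0.19 SE, adjusted p = 0.00179). It was below 0 for Tnfrsf26 (-2.13 ± 0.44 SE, adjusted p = 0.00248), Tnfrsf9 (-1.89 ± 0.24 SE, adjusted p = 8.44e-06), Tnfrsf8 (-1.75 ± 0.29 SE, adjusted p = 0.000269), Tnfrsf23 (-1.27 ± 0.31 SE, adjusted p = 0.0118), Tnfsf8 (-0.98 ± 0.26 SE, adjusted p = 0.0227), Fasl (-0.98 ± 0.30 SE, adjusted p = 0.0488) and Tnfrsf25 (-0.93 ± 0.20 SE, adjusted p = 0.00331). The Tnfsf9 value was 2.26 without WT 10 ng/ml replicate 2 (adjusted p = 0.00331), within 0.000195 to 0.0107 over all alternatives. The Tnfsf8 call was lost without any 1 of WT 2.2 ng/ml replicate 1 (adjusted p = 0.0852), WT 10 ng/ml replicate 3 (0.0502), DKO 2.2 ng/ml replicates 2 (0.0568) and 3 (0.0505), DKO 10 ng/ml replicate 1 (0.0673), within 0.00111 to 0.0852 over all alternatives. For Fasl it was lost under quantile normalization (adjusted p = 0.0622), with the replicate number as a block (0.0611), with only the compared groups in the fit (0.0514) and without any 1 of WT 2.2 ng/ml replicates 1 (0.133) and 3 (0.1), WT 10 ng/ml replicate 2 (0.158), DKO 2.2 ng/ml replicates 2 (0.125) and 3 (0.0904), DKO 10 ng/ml replicates 1 (0.0544), 2 (0.0698) and 3 (0.131), within 0.0239 to 0.158 over all alternatives. These comparisons share arrays, since the 10 ng/ml arrays enter both of the last sets, so their values are not independent of each other. Groups of 3 arrays were too small for a test of single outlying arrays.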

How the results depend on the processing

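Of 195 member calls over all comparisons, 149 held under every alternative and 46 were lost under at least 1, of which 45 were lost on omission of a single array. No member reversed its direction at a call. The 1 reversal concerned Rel from day 0 to day 2 in WT cells, 0.32 on the log2 scale and -0.029 under cyclic loess. The family count of genotype calls at day 0 was 1, 0 under cyclic loess and 0 with only the compared groups in the fit, and 0 to 1 over single omissions. For the genotype difference of the change to day 2 it was 1, 2 under cyclic loess, 2 with a filter on dim genes and 2 with trend and robust moderation. It was 3 with only the compared groups, and 1 to 2 over single omissions. Without 2 of the WT arrays that stood apart in some members (2.2 ng/ml and day 2, replicate 3) it was 4. Under cyclic loess 1 of its 2 calls was higher. Between genotypes at 2.2 ng/ml the count was 8, and 5 without both arrays or 5 to 8 over single omissions. At day 2 it was 7, and 3 to 6 over single omissions, and at 10 ng/ml 14, and 9 to 13.

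Whether the replicate number pairs arrays was checked over 84 pairs of same-numbered arrays, whose deviations from the group means correlated at a median of 0.000998 (-0.152 to 0.264), with 4 pairs over 0.1, and 10 of 24 arrays correlated best with their own number. The numbers were not taken as pairing. With the replicate block the family count for the change to day 2 was 3 in place of 1, and in the other comparisons it stayed within 1.5 times the count without the block. Where single member calls were lost under it, the value stands beside the member.

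Quantile normalization moved the all-gene median by 0.142 from day 0 to day 2 in WT cells and by at most that elsewhere. The cause of each loss was not tested. Members below the guide have compressed folds.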
